A study of Mus musculus with 4 samples.

Results

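Among the human leukocytes of MDA-MB-231 tumors in humanized mice, 1029 of 16327 kept cells were S100A12 positive monocytes, here called S100A12 monocytes. The 16327 cells came from 42702 deposited barcodes. Members were chosen cell by cell from UMI counts, where a UMI tags 1 captured RNA molecule. A member had at least 1 UMI of S100A12, at least 5 UMIs of S100A12 and S100A8 together and at least 3 UMIs of VCAN. It had at most 5 UMIs of the complement genes C1QA, C1QB and C1QC together, none of CD1C and at most 1 of CD3D, CD3G and TRAC together. These genes chose the members, so their levels are a description of the choice. A subset of 153 members had at least 2 UMIs of HP, PADI4 and VNN2 together, genes that neutrophils share with some monocytes.

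Single human CD45+ cells were sorted from the tumors of 14 MISTRG mice, which carry human genes for myeloid growth factors and had received human fetal liver CD34+ cells as newborns after sublethal irradiation. MDA-MB-231, a human triple-negative breast carcinoma line, was grown in the mammary fat pad. Of the mice, 7 were untreated and 7 received the small molecule drug maraviroc at 300 mg/l in the drinking water for 10 days from day 21, with tumor collection for every mouse at day 31. Hashtag antibodies marked the mouse of origin, and pooled cells went through droplet 3′ RNA-seq in 2 reactions, with 4 untreated and 3 maraviroc-treated mice in reaction 1 and 3 untreated and 4 maraviroc-treated mice in reaction 2. All these mice, untreated ones included, shared the host strain, the irradiation, the graft and the tumor line, and the hashtag names give no donor of the graft. The reactions differed in depth, with 133089612 UMIs over 29120 barcodes in reaction 1 and 175447534 UMIs over 13582 barcodes in reaction 2. In both reactions, 136 barcode sequences occurred, 9 of them among the members.

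Classical monocytes leave the bone marrow through the chemokine receptor CCR2, circulate in the blood and enter inflamed tissue and tumors, where they can become macrophages or dendritic cells. S100A8, S100A9 and S100A12 encode calgranulins, calcium-binding proteins of the cytosol of neutrophils and monocytes that act as danger signals once released. They are abundant in monocytes that have recently come from the blood and decline as these cells mature into macrophages, while complement C1Q and scavenger genes rise.

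The members had a median of 3 UMIs of S100A12 (1 to 75), 58 UMIs of S100A8 and 40 UMIs of VCAN. C1Q genes were at 0 in 581 of the 1029 members. At the edges of the rule, 326 members had 1 UMI of S100A12, while 612 cells within the other limits had none although they held at least 5 UMIs of S100A8. There were 32 members with 3 UMIs of VCAN and 22 cells that missed the rule only by having 2. For C1Q, 13 members had 5 UMIs, and 226 cells missed the rule only by having 6 or more. A single UMI of S100A12 thus separated many members from cells outside, and the number of members depended on the depth per cell. The members' median depth was 8029 UMIs and 2829 genes in reaction 1 and 11776 UMIs and 3559.5 genes in reaction 2.

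FCN1 and MCEMP1 checked the label, since the rule did not use them. FCN1 (ENSG00000085265) encodes ficolin 1, a lectin of classical monocytes, and MCEMP1 (ENSG00000183019) a membrane protein first described in mast cells and also found in monocytes. Levels are given in CPM, UMIs of a gene per 1000000 UMIs summed over the cells of a population, pooled over mice unless stated otherwise, with 95% exact Poisson intervals that cover counting error only. FCN1 was at 916 CPM (898 to 934) in the members, 485 in cells that met the limits on VCAN, C1Q, CD1C and T cell genes but had no S100A12 UMI, whatever their S100A8 count (S100A12-negative monocytes, 1124 cells), 89.4 in cells with at least 6 C1Q UMIs (C1Q macrophages, 5432 cells) and 5.1 in T cells (3451 cells). MCEMP1 followed the same order, at 151 CPM (144 to 158) in the members, 87.1 in S100A12-negative monocytes (122 in the 612 of these with at least 5 S100A8 UMIs), 16.9 in C1Q macrophages and 0.7 in T cells. The T cell values show how much of these transcripts reached cells that should lack them. Pooled over mice, both markers were highest in the members among these populations. In the 612 cells with S100A8, FCN1 was at 611 CPM, and the members were higher in 14 of 14 mice. For MCEMP1 the members were higher than these cells in only 8 of 14 mice. Both markers were given with the label, so they are a limited check of it.

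Markers of other cell types were counted in full. Of 4 dendritic cell markers, CD1C (barred by the rule) and FCER1A were at 0 in all members, and CLEC10A made up most of the summed 19.4 CPM. The 6 neutrophil markers FCGR3B, CXCR2, CEACAM8, CXCR1, CMTM2 and PROK2 summed to 22.5 CPM, of which PROK2 gave 18.4. The 4 T cell markers summed to 7.66 CPM, the 2 B cell markers to 3.66 CPM and the 4 carcinoma markers, led by KRT7, to 17.0 CPM. Granulocyte precursor markers, led by MPO, summed to 14.4 CPM with a highest mouse at 183, plasmacytoid dendritic cell markers, led by GZMB, to 12.6 with a highest mouse at 119, and mast cell markers, led by TPSAB1, to 11.3 with a highest mouse at 126. Macrophage markers summed to 996 CPM with MRC1, the mannose receptor, at 904, against 981 and 825 CPM in S100A12-negative monocytes, and nonclassical monocyte markers to 813 CPM with TCF7L2 at 452 and FCGR3A at 356. NK cell markers (NKG7, GNLY and KLRD1) reached 166 CPM, led by GNLY at 99.1, against 3531 CPM in the T cells. At least 3 UMIs of lymphoid, mast or plasmacytoid dendritic cell genes were found in 154 members. With such cells left out there were 875 members, 120 of them in the subset, and 1887 monocytes within the VCAN, C1Q, CD1C and CD3 limits. Counts of genes that differ between reactions, or in their maraviroc effect between reactions, are also given below without them. Ratios between populations were not recomputed without them.

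The question of the treatment comparison was whether maraviroc changed the number or the expression of these cells. Their shares in maraviroc-treated and untreated tumors overlapped. S100A12 monocytes were 6.07% ± 1.62 (SD, n = 7) of kept CD45+ cells in untreated mice, with a lowest share of 3.44%, a median of 6.67% and a highest of 7.83%. In maraviroc-treated mice they were 6.37% ± 2.61 (SD, n = 7), with a lowest share of 2.46%, a median of 6.06% and a highest of 10.3%. The ranges overlapped, and the lowest and the highest mouse were both treated. Within reactions, treated minus untreated was -0.049 percentage points (p = 0.958 from an exact permutation of mice within reactions, two-sided, 1225 regroupings, and 0.958 adjusted over 3 shares).

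Among all monocytes within the VCAN, C1Q, CD1C and CD3 limits (VCAN monocytes, 2191 cells), S100A12 monocytes made up 45.1% ± 10.0 (SD, n = 7) in untreated and 47.0% ± 10.1 in treated mice, and the within-reaction difference was 0.457 percentage points (exact permutation p = 0.922, adjusted p = 0.958). The subset with HP, PADI4 or VNN2 was 15.4% ± 4.68 (SD, n = 7) of the members in untreated and 15.0% ± 7.14 in treated mice, with a difference of -0.491 percentage points (exact permutation p = 0.887, adjusted p = 0.958). In no share did the treatments differ by more than the spread between mice. A share counts cells after sorting and does not give numbers of cells per tumor.

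**Figure D1:**
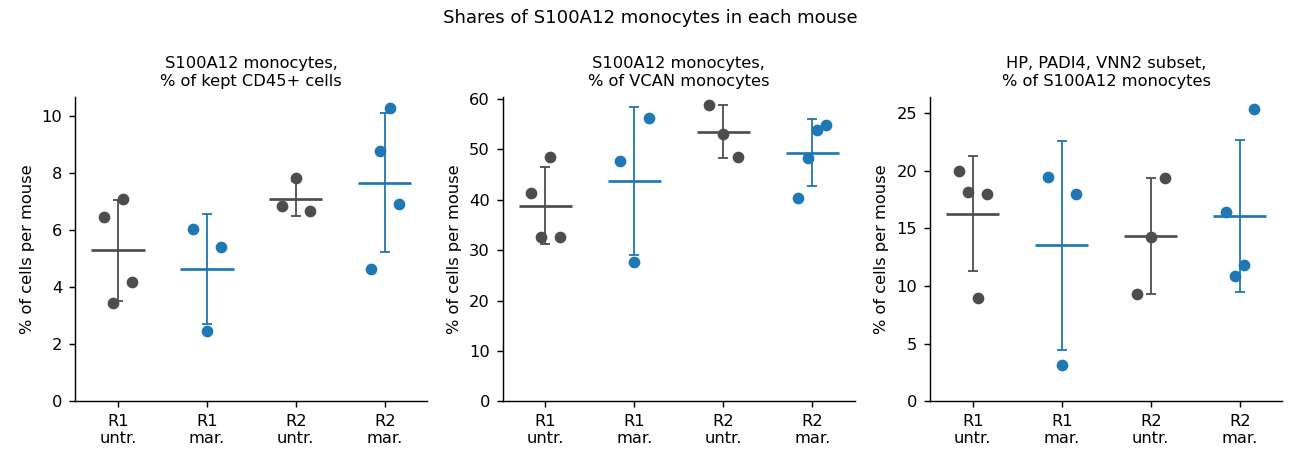
Percent of cells per mouse for S100A12 monocytes among kept CD45+ cells (left), among VCAN monocytes (middle) and for the HP, PADI4 and VNN2 subset among S100A12 monocytes (right), by reaction (R1, R2) and treatment, with points for mice, lines for means and bars for SD. Untreated and treated mice overlap in every reaction and panel, for example from 3.44% to 7.08% and from 2.46% to 6.06% of kept cells in reaction 1.

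The share of kept cells per mouse was 5.02% ± 1.70 (SD, n = 7) in reaction 1, from 2.46% to 7.08%. In reaction 2 it was 7.43% ± 1.79 (SD, n = 7), from 4.64% to 10.3%. The reactions thus overlapped, and their difference was not tested over mice. Pooled over mice, the share was 4.88% in reaction 1 (95% exact binomial interval 4.40% to 5.39%, counting error only). It was 7.47% in reaction 2 (6.94% to 8.04%). When each cell was thinned to 2000 UMIs, 480 of 15057 cells met the rule, 411 of them members before, and the shares were 3.10% and 3.25%. As a share of VCAN monocytes they were 40.7% and 51.1% before and 23.3% and 18.6% after thinning, over different cells, since 1555 of the 2369 VCAN monocytes after thinning had been so before. Thinning also left out the cells with fewer UMIs, keeping 6220 of 7361 cells in reaction 1 and 8837 of 8966 in reaction 2. The part of depth in the difference between reactions was not tested, and no order of the reactions is read from these shares.

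Compared with S100A12-negative monocytes of the same mice, the members held more RNA of most listed monocyte genes and less of several macrophage genes, SPP1 and GPNMB among them, but not of MRC1. This comparison is a description without a test, since the counts of the same cells chose both populations. Of the 1124 S100A12-negative monocytes, 612 had at least 5 S100A8 UMIs, so the populations differed by the S100A8 limit too. Of 3827 genes at 50 CPM or more in either, 608 differed in the same direction in at least 12 of 14 mice, and the median log2 ratio over all of them was -0.019. Of these 608 genes, 7 were 2-fold or more higher in the members and 13 were 2-fold or more lower. The median depth of S100A12-negative monocytes was lower, at 4886 UMIs in reaction 1 and 10704 in reaction 2, and the part of depth in these ratios was not tested.

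Of the 20 monocyte surface and secreted genes, 17 were higher in the members, and the median log2 ratio was 0.59. VCAN, which the rule used, is among the 20. Against the 612 cells with S100A8, 15 of the other 19 were higher, 7 of them in at least 12 mice, with a median of 0.31. FCN1 ranged from 777 to 1112 CPM (median 911) against 237 to 634 (median 488), so that every mouse's members were above every mouse's S100A12-negative monocytes. RETN, which encodes resistin, a protein secreted by human myeloid cells, ranged from 454 to 1603 CPM (median 744) against 154 to 796 (median 258), with some overlap. LYZ, encoding lysozyme, was at 3108 against 1588 CPM, and RNASE2, a granule ribonuclease, at 88.0 against 23.7 CPM. S100A9, the partner of S100A8, was at 11856 CPM against 3906, and 5555 in the 612 cells with S100A8. It was not in the rule, although S100A8 and S100A9 proteins form 1 complex. Further genes with high ratios were MCTP2 (172 against 54.5 CPM), CLU, which encodes the extracellular chaperone clusterin (118 against 40.5 CPM), ADAM19, PLBD1 and DYSF.

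Of the 12 macrophage genes at 10 CPM or more, 11 were lower in the members, with a median log2 ratio of -0.75. The rule used 3 of them, the C1Q genes, and of the other 9, 8 were lower, 3 in at least 12 mice, with a median of -0.53. Against the 612 cells with S100A8, 8 of the 9 were lower, 1 in at least 12 mice, with a median of -0.44. MRC1 was the exception, at 904 against 825 CPM, higher in 7 of 14 mice. SPP1, encoding osteopontin, ranged from 470 to 5060 CPM over the mice (median 1012), against 918 to 6719 (median 2719) in S100A12-negative monocytes. Its ranges overlapped widely, and SPP1 varied between mice in both populations. RNASE1 was at 79.3 against 319 CPM, FN1, encoding the matrix protein fibronectin, at 49.1 against 177 CPM, and MMP12, the macrophage elastase, at 14.0 against 89.5 CPM. T cells, which should lack them, held 187 CPM of SPP1 at the median and 12.3 CPM of MMP12 when pooled, so the members' MMP12 lay near background. GPNMB, a transmembrane glycoprotein of tumor and lipid-loaded macrophages, was at 41.3 against 102 CPM. In the 612 cells with S100A8 it was at 66.6 CPM, and the members were lower in 10 of 14 mice. PLIN2, the coat protein of lipid droplets, was at 519 against 791 CPM and HMOX1, the heme oxygenase, at 463 against 639 CPM. The 612 cells with S100A8 held 670 CPM of PLIN2 and 519 CPM of HMOX1. Members were lower than these in 9 of 14 mice for PLIN2 and in 8 for HMOX1. Of 11 measured lipid, iron and oxidative stress genes, 7 were lower than in all S100A12-negative monocytes and 4 higher, with a median log2 ratio of -0.13. Of the 9 measured hypoxia and glycolysis genes, 7 were lower, with a median log2 ratio of -0.30. Against the 612 cells with S100A8 their directions were mixed. Log2 ratios there were 0.13 for VEGFA, 0.07 for ADM, 0.03 for PGK1 and 0.02 for NDRG1. They were -0.05 for ENO1 and HILPDA, -0.17 for SLC2A1, -0.18 for LDHA and -0.24 for BNIP3.

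Antigen presentation genes were lower as a group but still high. All 8 MHC class II genes, which encode the chains and the loading machinery that present peptides to CD4+ T cells, were lower in the members, 6 of them in at least 12 mice, and the median log2 ratio was -0.41. Against the 612 cells with S100A8, all 8 were lower, 7 in at least 12 mice, with a median of -0.48. HLA-DRA ranged from 1797 to 3398 CPM over the mice (median 2572), against 2538 to 3994 (median 3395). The ranges overlapped, and the pooled levels were 2552 and 3335 CPM. The level in T cells was 282 CPM at the median. CD74, the invariant chain, was at 1790 against 2385 CPM. None of the 8 genes differed by 2-fold.

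The distance to C1Q macrophages was wider, as the C1Q limit chose it to be. Same-direction differences in at least 12 mice were found for 2505 of 4129 genes. The C1Q genes chose both populations and are left out of the next count. Of the 13 other macrophage genes, 12 were lower in the members, with a median log2 ratio of -3.27, and MARCO, a scavenger receptor, was higher (158 against 75.9 CPM). SELENOP, a secreted selenium carrier, was at 5.66 against 255 CPM, the C-type lectin CD209 at 2.35 against 126 CPM and the iron exporter SLC40A1 at 6.01 against 262 CPM. T cells held 4.13 CPM of SELENOP and 2.20 CPM of CD209, so these members' levels are read as background. The aquaglyceroporin AQP9 (301 against 25.3 CPM) and PLAC8 (171 against 16.4 CPM) were higher. All 6 cell cycle genes, such as MKI67 and TOP2A, were lower in the members.

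**Figure D2:**
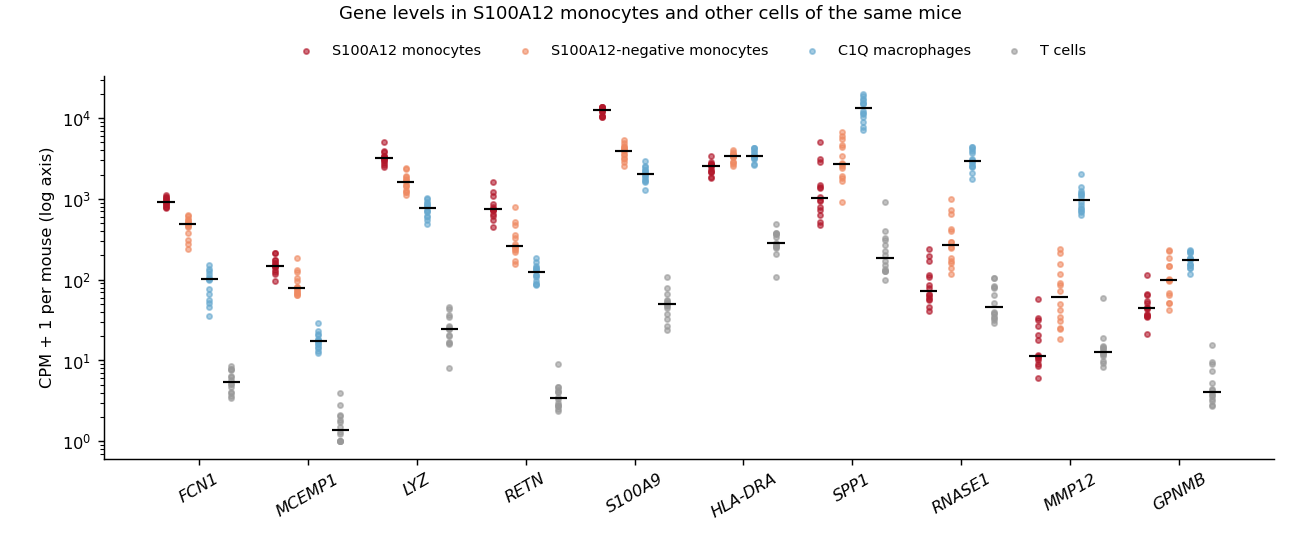
CPM + 1 (log axis) of 10 genes in S100A12 monocytes, S100A12-negative monocytes, C1Q macrophages and T cells, with 1 point per mouse (14 mice) and a line at the median. FCN1, LYZ and S100A9 medians are highest in S100A12 monocytes, while SPP1, RNASE1, MMP12 and GPNMB medians rise from S100A12 monocytes to C1Q macrophages.

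The members also varied among themselves. In each mouse, members were divided by their S100A12 UMIs per total UMI into 512 cells with more and 512 with less. Here too the choice used S100A12, and the cells with more had fewer UMIs in all, with medians of 4706.5 against 10268 in reaction 1 and 10360.5 against 13572 in reaction 2. Of the 20 monocyte genes, 15 were higher in members with more S100A12, 7 of them in at least 12 mice, and of 10 macrophage genes 9 were lower, 3 of them in at least 12 mice, the exception being C1QB, which the rule used. S100A9 was at 17161 CPM in members with more S100A12 and 8050 CPM in members with less. MCTP2 was at 284 against 91.5 CPM. CEBPB, a transcription factor of monocyte and granulocyte differentiation, was at 544 against 373 CPM and higher in all 14 mice. All 8 MHC class II genes were lower in at least 12 mice, with a median log2 ratio of -0.78. Over all 3792 genes at 50 CPM or more, 632 had the same direction in at least 12 mice, and the median was -0.017. HLA-DPB1, for example, was at 353 against 734 CPM. FCGR3A, encoding CD16, was lower as well (256 against 427 CPM), as was MMP9 (12.7 against 57.6 CPM).

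The subset with HP, PADI4 or VNN2 was chosen by those genes. PADI4, a citrullinating enzyme with a role in neutrophil extracellular traps, had a UMI in 118 of the 153 cells, HP, which encodes the hemoglobin carrier haptoglobin, in 75 and VNN2, a vanin of the leukocyte surface, in 66. There were 49 cells at the limit of 2 UMIs and 114 members just outside with 1. The subset held 1 to 20 cells per mouse (median 11), so it was compared with the other 876 members in the 13 mice with at least 5 such cells, a limit chosen after the counts had been seen. Median depths were 10096 UMIs in the subset and 11038.5 in the other members. Of 3825 genes, 414 differed in the same direction in at least 12 of the 13 mice, and of these 19 were 2-fold or more higher and 50 were 2-fold or more lower.

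Higher genes of the subset included MCTP2 (472 against 123 CPM), S100P, a calcium-binding protein of granulocytes (71.8 against 18.8 CPM), DYSF, a membrane repair protein (193 against 76.9 CPM) and PLBD1 (192 against 83.2 CPM). The choline transporter SLC44A1 was at 1415 against 621 CPM. Neutrophil identity was not seen in full. CXCR2, the main chemokine receptor of neutrophils, was at 0 of 1587183 UMIs in the subset (upper 95% limit 2.32 CPM), FCGR3B was at 1.9 CPM and CEACAM8 at 0.6 CPM, whereas PROK2 was at 52.3 against 12.9 CPM. FCN1, a monocyte gene, was at 1110 CPM in the subset and 885 CPM in the other members. Granulocyte precursor markers, led by MPO, reached 795 CPM in 1 mouse, against a median of 3.56 CPM over the mice.

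Of the 11 chemokine and chemokine receptor genes, 9 were lower in the subset and 2 higher, 3 of them lower in at least 12 mice, with a median log2 ratio of -0.81. CCL2, which draws monocytes through CCR2, was at 93.2 CPM in the subset and 946 in the other members, lower in 13 of 13 mice. CCL8, another monocyte-attracting chemokine, was at 1.89 against 66.8 CPM, which in the subset was below the 3.72 CPM of T cells. CCL3L1, an inflammatory chemokine with near-identical copies, was at 12.6 against 116 CPM and CXCL3, which draws neutrophils, at 110 against 344 CPM. CXCL10, an interferon-induced chemokine that draws T cells, was at 48.5 against 379 CPM. CCL3L1, CXCL3 and CXCL10 are not among the 11. Of 15 measured inflammatory cytokine genes, 12 were lower, but only 2 in at least 12 mice, with a median log2 ratio of -0.78. Over all 3825 genes at 50 CPM or more, the median was 0.029. MHC class II genes were lower in 8 of 8 cases, 7 of them by 2-fold or more, with a median log2 ratio of -1.19, and HLA-DRA was at 1198 against 2769 CPM, lower in 13 of 13 mice. FABP5, a fatty acid carrier, was at 25.2 against 99.7 CPM, and the stress-induced transcription factor ATF3 at 69.3 against 249 CPM.

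**Figure D3:**
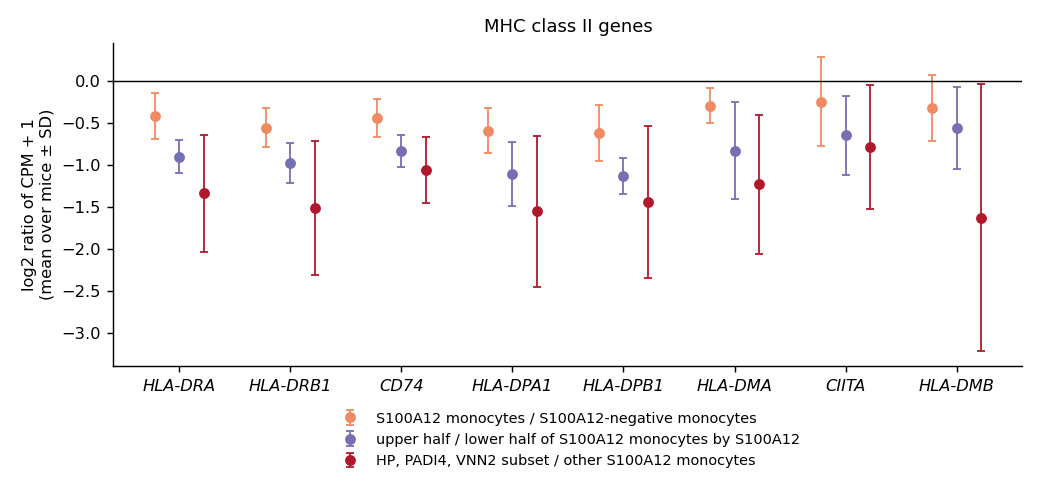
Log2 ratio of CPM + 1 (mean over mice, bars SD) of the 8 MHC class II genes for S100A12 monocytes over S100A12-negative monocytes (14 mice), for members with more over members with less S100A12 (14 mice) and for the HP, PADI4 and VNN2 subset over the other members (13 mice). Every mean lies below 0, and for each gene the lowest of its means is that of the subset.

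For the maraviroc comparison across genes, UMIs were summed over the members of each mouse, 32 to 144 cells (median 67), and fitted with edgeR with the reaction as a block. Of 7314 genes tested, 0 passed an adjusted p of 0.05 (0% called; quasi-likelihood test, Benjamini-Hochberg adjustment), 285 had an unadjusted p under 0.05 (3.90%), of which 164 were higher and 121 lower, and DESeq2 called 0. Log2 fold changes from here on are maraviroc over untreated, and levels are normalized CPM, scaled by TMM factors.

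CCR2, the receptor through which monocytes leave the marrow, was at 35.0 to 82.0 normalized CPM and had a log2 fold change of 0.07 ± 0.18 (SE). Of the 10 chemokine and chemokine receptor genes tested, 0 passed the adjusted threshold, 7 had a positive and 3 a negative log2 fold change, and the median was 0.042 against 0.0017 over all genes.

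Genes that the study followed in myeloid cells did not pass the test for treatment, all with an edgeR adjusted p of 0.99996, and the largest standard errors were those of CXCL10 and IL1B. IL1B, an inflammatory cytokine gene, had a log2 fold change of -0.23 ± 0.38 (SE) over both reactions, which is divided by reaction below. VCAN, the proteoglycan versican, had a log2 fold change of 0.07 ± 0.10 (SE). CX3CR1, the fractalkine receptor, had -0.09 ± 0.21, HLA-DRA 0.01 ± 0.12 and GPNMB 0.08 ± 0.24. The transferrin receptor gene TFRC had 0.18 ± 0.26, FABP5 0.26 ± 0.13, PLIN2 0.29 ± 0.19 and HMOX1 -0.09 ± 0.31. CXCL10 had 0.47 ± 0.51 and ranged from 5.30 to 1110 normalized CPM between mice, and it was 0.057 to 0.65 when 1 mouse was left out. TREM2, the lipid receptor of tumor macrophages, was too low to test, at 6.8 CPM. S100A9 had 0.09 ± 0.07, while S100A8 and S100A12 were used to choose the members. The 12 tested interferon-stimulated genes had a median of 0.051 and the 8 MHC class II genes one of 0.012.

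The genes with the lowest unadjusted p also failed the adjustment (edgeR, adjusted p of 0.99996 each). PTK2, the focal adhesion kinase, was between 26.2 and 43.7 normalized CPM in untreated mice (median 32.3) and between 35.7 and 77.2 in treated mice (median 58.9), with a log2 fold change of 0.73 and an unadjusted edgeR p of 0.000423. ACSM3, a mitochondrial acyl-CoA synthetase, averaged 66.8 ± 25.6 normalized CPM without and 27.5 ± 17.5 with maraviroc (SD, n = 7 each). Its log2 fold change was -1.21. All 7 treated mice were above the untreated median for PTK2 and all 7 below it for ACSM3, with overlap between the groups in both. F13A1, the coagulation factor XIII subunit of monocytes, had a log2 fold change of 0.76 (115 ± 40.6 and 192 ± 84.6 normalized CPM) and DUSP6, a phosphatase that limits ERK signaling, one of 0.44 (169 ± 22.8 and 235 ± 37.2). DST and AC100849.1 were the other higher genes, and SLC8B1, EIF1AD, DDX52 and TMEM70 the other lower ones.

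The maraviroc effect differed between the reactions for a small number of genes, IL1B and NFKBIA among them. The interaction of reaction and treatment passed an adjusted p of 0.05 for 14 of 7314 genes (0.191%; edgeR, Benjamini-Hochberg), with 569 genes at an unadjusted p under 0.05 (7.78%). Earlier results from these same files had shown opposite directions by reaction for several genes, IL1B among them, over all myeloid cells, which include the members. The interaction was fitted for that reason. Its genes and the gene-list counts below are thus no independent evidence. In reaction 1 alone, edgeR called 4 of 6225 genes (0.0643%), IL1B, EREG, NFKBIA and MT1G, all lower in treated mice, and in reaction 2 alone it called 0 of 8528.

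IL1B (ENSG00000125538) encodes the cytokine interleukin 1 beta, which monocytes make on sensing damage. In reaction 1, its level was 1502, 2534, 1341 and 1092 normalized CPM in the untreated mice and 585, 445 and 606 in the treated mice. In reaction 2, it was 655, 570 and 775 in the untreated mice and 1091, 2115, 734 and 1322 in the treated mice. All treated mice were thus below all untreated mice in reaction 1, while in reaction 2 all but 1 treated mouse were above them. The log2 fold change was -1.54 ± 0.24 (SE) in reaction 1 and 0.98 ± 0.26 in reaction 2, and the difference was 2.52 (edgeR adjusted p = 0.0111). T cells held 4.32 to 46.9 CPM.

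NFKBIA (ENSG00000100906) encodes the inhibitor of NF-κB that NF-κB itself induces. Reaction 1 gave 767, 1129, 999 and 1005 normalized CPM in untreated and 478, 392 and 496 in treated mice. Reaction 2 gave 568, 518 and 623 in untreated and 678, 1027, 629 and 723 in treated mice. The treated mice lay below all untreated mice in reaction 1 and above all of them in reaction 2. The log2 fold changes were -1.08 ± 0.16 (SE) and 0.42 ± 0.15, with a difference of 1.51 (edgeR adjusted p = 0.0111).

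MT1G (ENSG00000125144), a metallothionein that binds zinc and copper, had the lowest p. In reaction 1 it was at 354, 183, 178 and 395 normalized CPM in untreated and 19.6, 21.2 and 24.6 in treated mice. In reaction 2 it was at 209, 129 and 149 in untreated and 150, 319, 479 and 221 in treated mice. The groups were far apart in reaction 1 and overlapped in reaction 2. The log2 fold changes were -3.66 ± 0.38 (SE) and 0.87 ± 0.31 (difference 4.53, edgeR adjusted p = 0.0021). MT1H, a neighbouring member of the family, followed with -3.63 and 0.75 (difference 4.37, adjusted p = 0.0308). Without the first treated mouse of reaction 1 the MT1H difference was 7.21. Metallothionein genes are near-identical, so reads can be shared between them.

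EREG, encoding the growth factor epiregulin, was at 573, 1082, 438 and 932 normalized CPM in untreated and 284, 154 and 139 in treated mice of reaction 1. In reaction 2 it was at 504, 340 and 199 in untreated and 477, 663, 360 and 675 in treated mice. The groups were separate in reaction 1 and overlapped in reaction 2, and the difference between reactions was 2.54 (edgeR adjusted p = 0.0308). TRAF1, an adaptor of TNF receptors, was at 76.3, 128, 54.5 and 55.0 in untreated and 26.8, 21.2 and 20.1 in treated mice of reaction 1, then at 35.7, 28.0 and 28.4 in untreated and 78.8, 107, 44.6 and 50.2 in treated mice of reaction 2. The treatments did not overlap in either reaction, and the difference was 2.83 (edgeR adjusted p = 0.0278).

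Other genes past the threshold with the same directions were IRAK2, a kinase of interleukin 1 and Toll-like receptor signaling (difference 1.93), TNFAIP3, the NF-κB inhibitor A20 (1.72), BIRC3, a ubiquitin ligase of the TNF pathway (2.14), NFKB1, an NF-κB subunit (1.50), NFKBIZ, an inducible regulator of NF-κB targets (1.24) and SMAD3, a mediator of TGF-β signaling (1.95), with edgeR adjusted p from 0.0111 to 0.0371. HIST1H2AC, a histone gene, went the other way, at 91.9, 35.0, 63.8 and 41.9 normalized CPM in untreated and 128, 132 and 145 in treated mice of reaction 1, and at 149, 173 and 128 in untreated and 142, 112, 105 and 108 in treated mice of reaction 2 (difference -1.52, adjusted p = 0.0368). In 13 of the 14 genes all treated mice were below all untreated mice in reaction 1 (4.03% of all genes), and in 6 all treated mice were above them in reaction 2 (3.38%). The same contrast chose these genes, and nothing is read from those counts. Apart from IL1B and EREG, which were on gene lists, they are named because of their values.

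**Figure D4:**
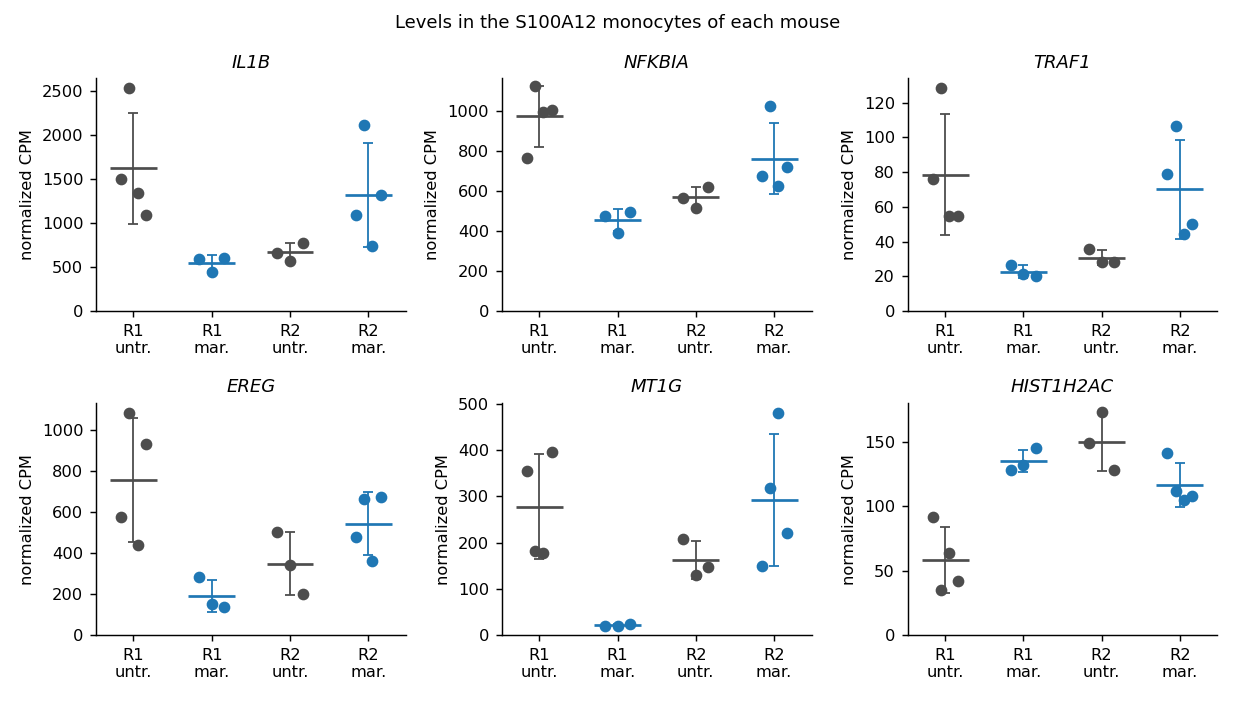
Normalized CPM of 6 genes in the S100A12 monocytes of each mouse, by reaction (R1, R2) and treatment, with points for mice, lines for means and bars for SD. IL1B, NFKBIA, TRAF1, EREG and MT1G are lower in treated mice of reaction 1 than in all its untreated mice, and TRAF1 and NFKBIA are higher in all treated than in all untreated mice of reaction 2.

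Of the 16 inflammatory cytokine genes, 13 could be tested. The interaction was positive in 12 of them, with a median log2 difference of 1.74 against 0.0077 over all genes. IL1B passed the adjusted threshold, and 8 genes had an unadjusted p under 0.05, all positive, against 4.54% of all genes. CXCL2, a neutrophil attractant, had a difference of 2.53 (edgeR adjusted p = 0.122) and CXCL3 one of 2.78 (adjusted p = 0.0996), neither past the threshold. IL6 had 1.74 and NLRP3, the inflammasome sensor, 0.65. Of the 10 chemokine and chemokine receptor genes, 3 had an unadjusted p under 0.05, all positive. Among these were the inflammatory chemokines CCL3 with 2.37 and CCL4 with 2.99 (edgeR adjusted p = 0.327 and 0.196). The 12 interferon-stimulated genes had 0 at an unadjusted p under 0.05 and a median of -0.16, and the MHC class II genes had 8 of 8 negative differences with a median of -0.29 and 1 at an unadjusted p under 0.05 (HLA-DMB). Of the 20 monocyte genes, 10 were positive and 10 negative. Differences between the lists were not tested.

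The count of 14 depended on which cells and mice entered. With S100A12 of at least 2 UMIs it was 0 (edgeR, 388 at an unadjusted p under 0.05), with at most 2 C1Q UMIs it was 3, and with the top hashtag at 80% or more of a cell's hashtag UMIs it was 9. It was 1 without the second treated mouse of reaction 1, the mouse with the fewest members, 2 without the second untreated mouse of reaction 2, and 4 without the third. DESeq2 called 42, including all 14. Each of the 14 genes kept its direction in every one of these alternatives and in every fit that left out 1 mouse. NK cell markers in the members of reaction 1 summed to 175, 616, 88.0 and 918 CPM in untreated and 404, 117 and 790 in treated mice, and their part in the interaction was not tested. Without the 154 members with lymphoid, mast or plasmacytoid genes, 15 genes passed, 9 of them among the 14.

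In other cells of the same mice, edgeR called the interaction for 0 of 7027 genes in S100A12-negative monocytes (0%, and 430 or 6.12% unadjusted), 0 of 12047 in C1Q macrophages (0%, and 994 or 8.25%) and 0 of 10484 in T cells (0%, and 453 or 4.32%); DESeq2 was not run for them. For treatment in reaction 1 alone, edgeR called 5 of 11682 genes in C1Q macrophages (0.0428%), 0 of 6756 in S100A12-negative monocytes (0%, and 343 unadjusted) and 0 of 10119 in T cells (0%, and 249 unadjusted). In reaction 2 alone it called 1 of 8568 in S100A12-negative monocytes (0.0117%), 0 of 12730 in C1Q macrophages (0%, and 665 unadjusted) and 0 of 11793 in T cells (0%, and 955 unadjusted). Whether the interaction differed between cell types was not tested. The log2 fold changes of IL1B in reactions 1 and 2 were -1.41 and 0.40 in S100A12-negative monocytes and -1.26 and 0.19 in C1Q macrophages. For NFKBIA they were -0.42 and 0.49, and -0.76 and 0.24. For MT1G they were -1.10 and -0.34, and -0.64 and -0.36. In T cells NFKBIA had 0.25 and 0.05.

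**Figure D5:**
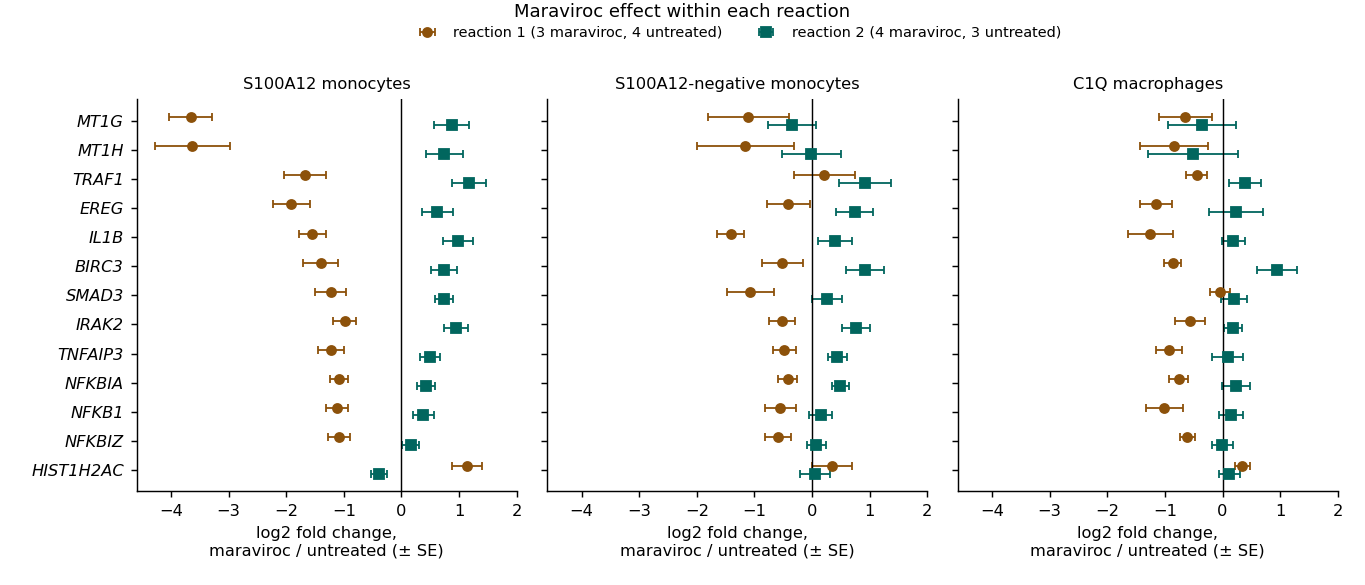
Log2 fold change (maraviroc over untreated, edgeR within each reaction, bars SE) of 13 of the genes with an interaction in S100A12 monocytes, shown for these cells, S100A12-negative monocytes and C1Q macrophages. In S100A12 monocytes the reactions lie on opposite sides of 0 for each gene plotted, from -3.66 and 0.87 for MT1G to 1.14 and -0.39 for HIST1H2AC.

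Between the reactions themselves, edgeR called 5 of 7314 genes (0.0684%, and 684 or 9.35% unadjusted) with treatment as a block. DESeq2 called 66 of 7314, and edgeR called 193 of 21633 when all genes with at least 1 count entered. GNLY, encoding the cytotoxic protein granulysin of NK and T cells, was 4.29 lower in reaction 2 on the log2 scale (adjusted p = 0.00148). Its level ran from 26.6 to 804 normalized CPM over the mice of reaction 1 (median 314) and from 12.3 to 23.4 over those of reaction 2 (median 17.6), without overlap. CCL5, a chemokine made by T and NK cells, was lower by 2.42 and NKG7, a cytotoxic granule gene, by 1.50. DDHD2, a phospholipase, was lower by 1.35, and the mitochondrial gene MT-ATP8 was higher by 0.86 (edgeR adjusted p from 0.00148 to 0.0464). Over all 3 NK cell markers, the median mouse had 404 CPM in the members of reaction 1 and 68.8 in those of reaction 2. Without the 154 members that held 3 or more lymphoid, mast or plasmacytoid UMIs, the count fell from 5 to 1, a gene higher in reaction 2. Depth, cell calling and any difference in graft or date between the reactions cannot be told apart here.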

How the data were processed

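The deposited files hold UMI counts per gene and per hashtag for the barcodes called as cells, not normalized, which the authors made with Cell Ranger 9.0.1 on GRCh38 per the submitters' processing notes, which also name Seurat 5.1.0. The labels name the mouse as organism, while the counted genes are human. Treatment was read from the hashtag names of the feature lists, since the labels do not give it.

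Barcodes were kept with 601 to 6000 genes, under 12.5% mitochondrial UMIs and a top hashtag with at least 60% of the hashtag UMIs, which assigned the mouse. No doublet caller was run; the hashtag limit and the limits on C1Q, CD1C and CD3 genes stood in for it. The mouse was the replicate. Member UMIs were summed per mouse and fitted with edgeR 4.0.16 in R 4.3.3 (filterByExpr, TMM, quasi-likelihood test, Benjamini-Hochberg), with reaction and treatment as terms, and with their interaction for the difference between reactions. Each edgeR SE is the size of the log2 fold change divided by the square root of its quasi-likelihood F statistic, and is approximate. DESeq2 1.42.0 was an alternative. Both tests were checked on simulated counts with known changes. Shares were compared with exact permutation tests within reactions (numpy 2.4.6, Python 3.11.15). The members held 11490298 UMIs in all. Ratios within mice used a pseudocount of 1 CPM. Intervals are exact at 95% and cover counting error only.

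Members and gene lists were chosen with earlier results of these data known. Genes were named as members of the lists or as the genes followed by the study, as up to 10 genes with the highest and lowest ratio at 50 CPM or more and the same sign in at least 12 mice, and as the 5 lowest p in each direction for treatment; those from the interaction and the reactions were named after their values were seen. Alternatives changed the limits on hashtags, mitochondrial share, genes, S100A12, VCAN and C1Q, the low-count filter, the tool and the block, thinned cells to 2000 UMIs, took each reaction alone and left out each mouse. For the interaction and the reaction difference they were chosen after seeing the data, as were the limit of 5 cells for the subset and the comparison with S100A8-holding S100A12-negative monocytes. Clustering, gene set tests and sequences were not used here. Results for a few genes are not reported here.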

Additional observations from a re-analysis of the deposited data

Results flagged for a closer look

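The log2 fold change of maraviroc in S100A12 monocytes differed between the reactions for 14 genes by a test of the difference (edgeR, Benjamini-Hochberg), of which 13 are given. Reaction 2 minus reaction 1 was 4.53 for MT1G, 4.37 for MT1H, 2.83 for TRAF1, 2.54 for EREG, 2.52 for IL1B, 2.14 for BIRC3, 1.95 for SMAD3 and 1.93 for IRAK2. It was 1.72 for TNFAIP3, 1.51 for NFKBIA, 1.50 for NFKB1, 1.24 for NFKBIZ and -1.52 for HIST1H2AC. Adjusted p ran from 0.0021 to 0.0371 (edgeR). The reactions also differed in depth and in NK cell transcripts, whose part in these differences was not tested.

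In 7 of 68 groups of 7 mice that were examined, 1 mouse stood apart from the others by Dixon's criterion. Each time it was the highest mouse. The criterion marks about 1 in 20 groups where values are normally distributed. Levels here were not on a log scale and some marker sums were at 0, so no excess is read from the 7. AC100849.1, a gene with a model name only, was at 85.6 normalized CPM in an untreated mouse (13.6 to 29.3 in the others) and at 312.6 in a treated mouse (23.4 to 101 in the others). Granulocyte precursor markers summed to 183 CPM in the members of an untreated mouse of reaction 1 (2.66 to 7.76 in the others). In treated mice, the highest sums were 43.9 CPM for neutrophil markers (10.2 to 22.5 in the others), 6.34 for B cell markers (0 to 2.37), 119 for plasmacytoid dendritic cell markers (3.21 to 17.1) and 126 for mast cell markers (0 to 12.6). Pooled over mice, the plasmacytoid sum was mostly GZMB, which T cells held at 441 CPM. NK cell markers summed to 790 CPM in the mouse at 119. The flagged sums move within single mice, and their part in the results was not tested.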

How the results depend on the processing

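The difference in the share of kept cells, -0.049 percentage points, turned to 0.296 without the reaction block, 0.548 in reaction 2 alone, 0.171 with a top hashtag of 80%, 0.143 with S100A12 of at least 2 UMIs and 0.0694 after thinning, and ranged from -0.487 to 0.499 when 1 mouse was left out. That of VCAN monocytes was -4.09 in reaction 2 alone (-2.63 to 4.51 without 1 mouse), and that of the subset 1.78 (-2.03 to 2.11). Genes called for treatment were 4 of 6225 in reaction 1 alone and 46 of 21633 with all genes tested, against 0 of 7314 in the main fit. Genes called for the interaction were 9 with a top hashtag of 80%, 0 with S100A12 of at least 2, 3 with C1Q of at most 2, 139 with all genes, 42 with DESeq2 and 1 to 19 without 1 mouse. Genes called between reactions were 1 with a top hashtag of 80%, 2 with S100A12 of at least 2, 2 with VCAN of at least 5, 1 without members holding lymphoid, mast or plasmacytoid genes, 193 with all genes, 66 with DESeq2 and 2 to 6 without 1 mouse. Each count with all genes is out of 21633. That fit gave smaller standard errors, 0.20 against 0.41 for the IL1B interaction, so its counts are not read as further findings. The cause of these changes was not tested.

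Several log2 fold changes for treatment, none past the threshold over both reactions, changed sign. VCAN was -0.00882 without lymphoid-marked members. CX3CR1 was 0.0018 in reaction 2 alone, 0.053 with C1Q of at most 2 and 0.036 without lymphoid-marked members (-0.21 to 0.0066 without 1 mouse). HLA-DRA was -0.13 in reaction 2 alone, -0.036 with a top hashtag of 80%, -0.12 with S100A12 of at least 2 and -0.013 with C1Q of at most 2 (-0.037 to 0.10). IL1B, at -0.23 over both reactions, was -1.54 in reaction 1 alone and 0.98 in reaction 2 alone (-0.51 to 0.022 without 1 mouse). GPNMB was -0.091 without the block, -0.25 in reaction 1 alone and -0.13 with C1Q of at most 2 (-0.087 to 0.27), and TFRC was -0.24 in reaction 1 alone (0.047 to 0.34). Without 1 mouse CXCL10 was 0.057 to 0.65, PLIN2 0.15 to 0.42, FABP5 0.16 to 0.37 and VCAN 0.00075 to 0.13. HMOX1 was 0.026 in reaction 2 alone, 0.58 with S100A12 of at least 2, 0.028 with VCAN of at least 5 and 0.083 with C1Q of at most 2 (-0.24 to 0.11).

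No paired analysis was possible because the replicate numbers only name mice in different reactions and treatments. With 32 members in the smallest mouse, genes under the low-count filter were tested only where all genes with at least 1 count entered.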
